A study of Caenorhabditis elegans with 12 samples.

Results

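The C-type lectin genes were taken as every gene whose name in the deposited gene column of the H4K5ac or the H4K8ac table begins with clec- and a number. By this rule 61 of the 7553 genes listed for either mark were lectin genes. The H4K5ac table held 31 of them among 5632 genes, and 52 were among the 5671 genes of the H4K8ac table. Both tables listed 22 lectin genes, 9 were listed for H4K5ac only and 30 for H4K8ac only. All 61 matched the RefSeq gene table of WBcel235 by name, where clec-44 is annotated as a pseudogene.

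Acetylated lysines 5 and 8 of histone H4 (H4K5ac and H4K8ac) were each precipitated from sheared chromatin of whole adult Caenorhabditis elegans and sequenced (ChIP-seq). The 4 groups were H4K5ac IP, H4K5ac input, H4K8ac IP and H4K8ac input, with 3 libraries each, where IP is the precipitated DNA and input the chromatin before precipitation. Every library came from the wild-type Bristol N2 strain, fed the Escherichia coli strain OP50 at 20 °C, so no mutant or treatment was compared. The series title asks how deacetylation genes act on lipid metabolism through these residues, and the lectin genes are described here for their own values.

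C-type lectins are secreted or membrane proteins with a fold that in many animals binds sugars, and the worm genome carries one of its larger gene families of this kind. Many worm lectin genes are known to be induced in the intestine by pathogens, several of them through the p38 kinase PMK-1, and are used as readouts of innate immunity. Acetyl groups on the tail of histone H4 neutralise the charge of its lysines, are bound by bromodomain proteins and are generally found at active genes. The worms were fed on OP50, the standard laboratory food, and not on a pathogen named in the labels.

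The deposited values were 1 estimated count per gene and library, with totals of 5460429 to 9156392 per library. Values below are counts scaled by library size (CPM), and each fold is a log2 ratio of IP over input relative to the typical listed gene of that table. Both lists run from the highest to the lowest ratio of IP over input and stop, so the lowest fold of any listed gene was -0.39 for H4K5ac and -0.34 for H4K8ac. "Lower" therefore stands for a smaller ratio than that of the typical listed gene and does not show loss of the mark. Listed regions overlapped 29 (H4K5ac) and 32 (H4K8ac) of 37 marker genes of 7 tissues, beside 53.3% and 58.1% of all coding genes. In chromatin of whole worms, fewer cells carrying a mark and less of the mark per cell cannot be told apart.

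Lectin genes lay in the lower part of the H4K5ac list. Of the 31 listed, 2 were higher in the IP than in the input relative to the typical gene, 21 were lower and 8 did not pass edgeR's quasi-likelihood test at an adjusted p of 0.05. Among all genes of the table, 32.2% were higher and 29.5% lower. The median log2 fold of the lectin genes was -0.28, against -0.02 over all genes, and they ranged from -0.37 to 0.54. The 3 IP libraries all lay below the 3 inputs for 24 lectin genes and all above for 2, where 33.1% and 35.1% of all genes did so. These directions hold relative to the typical listed gene only. When the libraries were scaled to the 25% of genes with the lowest ratios, every gene moved up by about 0.30. With that scaling 4 lectin genes were higher and 0 were lower (0 also at an unadjusted p under 0.05). Over all 5632 genes, 3272 were then higher and 0 lower (0 also at an unadjusted p under 0.05). Having 0 lower was thus not particular to lectin genes.

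In H4K8ac the lectin genes lay less far down. Of the 52 listed, 4 were higher, 22 were lower and 26 did not pass in edgeR's quasi-likelihood test, beside 31.2% higher and 33.6% lower among all genes. Their median log2 fold was -0.14, against -0.04 over all genes, with a range of -0.33 to 0.56. The IP libraries all lay below the inputs for 21 lectin genes and all above for 5, beside 36.5% and 32.7% of all genes. The count of lower genes rested on single libraries: it was 14 without IP replicate 1, without IP replicate 3 or without input replicate 1, and 31 without IP replicate 2. The lower genes over the whole table moved too, to 1603, 1301 and 1555 without those 3 libraries in that order, and to 2111 without IP replicate 2, beside 1908 with all 6. The median was -0.07 without IP replicate 1. With scaling to the least enriched genes, the shift was about 0.26, 23 lectin genes were higher and 0 lower (0 at an unadjusted p under 0.05). Over all 5671 genes, 3550 were then higher and 0 lower (0 at an unadjusted p under 0.05), so having 0 lower was not particular to lectin genes.

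**Figure D1:**
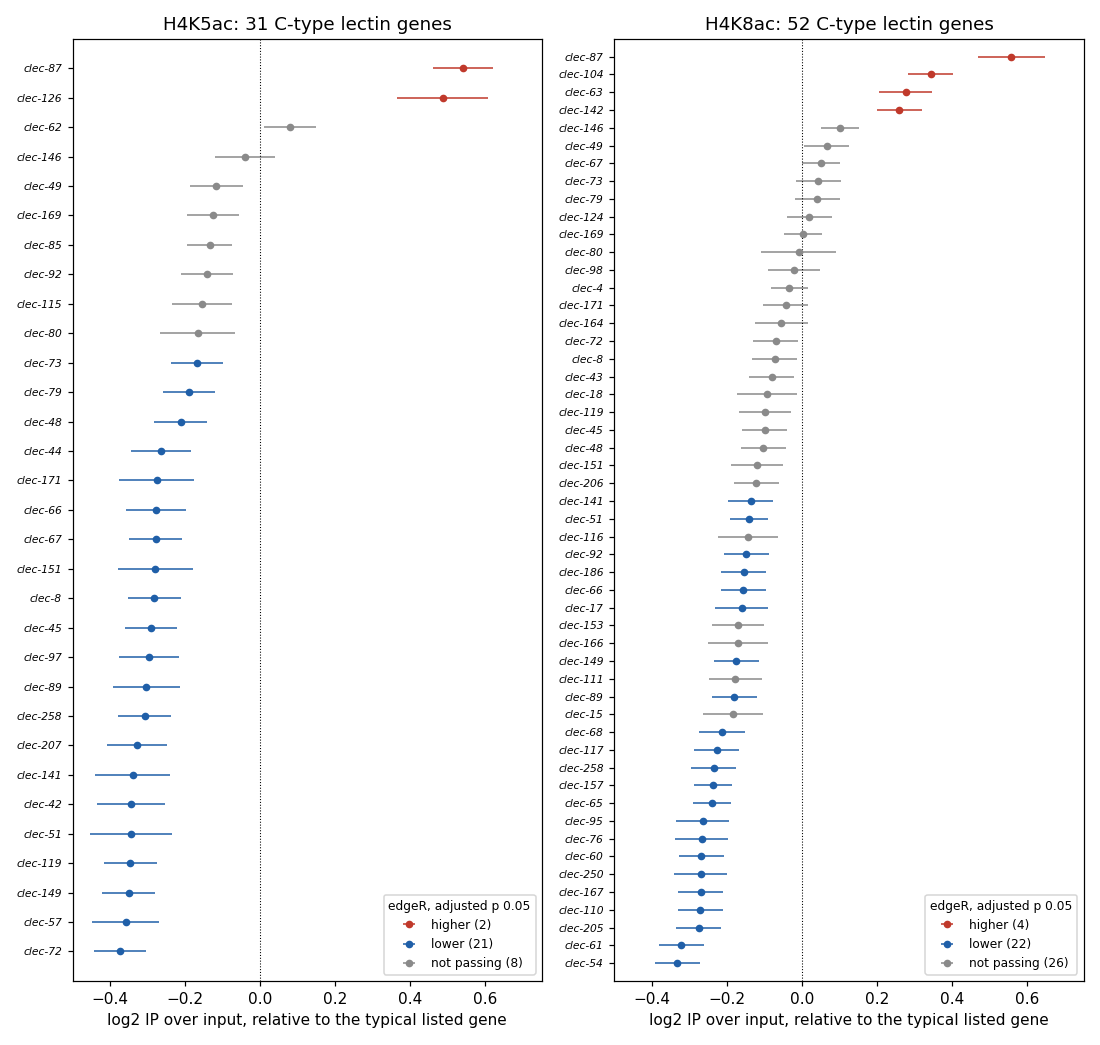
Log2 fold of IP over input, relative to the typical listed gene, for every listed C-type lectin gene, H4K5ac on the left (31 genes) and H4K8ac on the right (52 genes); bars are ± 1 standard error from 3 IP and 3 input libraries, and colour gives the edgeR call. Most genes lie left of 0, with medians of -0.28 and -0.14, and clec-87 leads both panels. Scaled to the least enriched genes, 20 of the 31 and 43 of the 52 lie above 0. Their medians are then 0.02 and 0.12, beside 0.28 and 0.22 over all genes of each table.

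The gene with the highest fold for both marks was clec-87, which encodes CPG-5, a chondroitin proteoglycan core protein, and lies on chromosome I from 10184462 to 10185520 in WBcel235. In the H4K5ac libraries it had 329.7, 313.4 and 335.2 CPM in the IPs, against 236.1, 214.4 and 222.6 CPM in the inputs. All 3 IPs lay above all 3 inputs, and the log2 fold was 0.54 ± 0.08 (SE; edgeR adjusted p = 0.000267). In the H4K8ac libraries it had 372.5, 303.1 and 319.0 CPM in the IPs, against 232.7, 219.2 and 224.0 CPM in the inputs, again without overlap, and the log2 fold was 0.56 ± 0.09 (SE; edgeR adjusted p = 0.000133). The regions named for it were among the longest of any lectin gene, 29.6 kb for H4K5ac and 30.8 kb for H4K8ac. The authors' annotation placed both at iars-2, an isoleucyl-tRNA synthetase gene whose annotated span overlaps that of clec-87. Both iars-2 and rsa-1, a regulator of spindle assembly, reach into the 2 kb on either side of the clec-87 start site.

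The other lectin gene called higher in H4K5ac was clec-126 on chromosome II (3519494 to 3520712). It had 239.6, 198.9 and 172.5 CPM in the H4K5ac IPs, against 164.4, 142.3 and 129.7 CPM in the inputs. The groups did not overlap, although the IPs spread widely, with an SD of 33.8 CPM (n = 3), and the log2 fold was 0.49 ± 0.12 (SE; edgeR adjusted p = 0.00411). Its 4.8 kb region was annotated as promoter, 3 bp from the start site. The window of clec-126 also holds the transfer RNA genes W09G10.t1, W09G10.t2 and W09G10.t3, the collagen gene col-72 and the lectin gene clec-125, so its count is uncertain. No H4K8ac region was named for clec-126, but one named for W09G10.t3 overlapped the gene.

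A further 3 genes were called higher in H4K8ac. The first, clec-104 on chromosome I (12859493 to 12861293), had 258.5, 245.7 and 260.6 CPM in the H4K8ac IPs, against 208.4, 198.4 and 196.3 CPM in the inputs, and a log2 fold of 0.34 ± 0.06 (SE; edgeR adjusted p = 0.000214). The gene ciao-1, which acts in assembling iron-sulfur proteins, lies in its window, and a H4K5ac region named for Y18D10A.11 overlapped it. Next, clec-63 on chromosome II (12895638 to 12897446) had 186.5, 211.1 and 181.6 CPM in the H4K8ac IPs, against 172.4, 151.8 and 153.5 CPM in the inputs, and a log2 fold of 0.28 ± 0.07 (SE; edgeR adjusted p = 0.00328). The last, clec-142 on chromosome II (8278678 to 8281035), had 236.3, 208.4 and 215.6 CPM in the H4K8ac IPs, against 184.1, 193.3 and 174.0 CPM in the inputs, and a log2 fold of 0.26 ± 0.06 (SE; edgeR adjusted p = 0.00235). In each of these genes the lowest IP lay above the highest input. The region named for clec-142 ran over 27.2 kb, was annotated at the promoter of mrpl-10, a mitochondrial ribosomal protein gene, and reached nst-1, the nucleostemin gene, for which the overlapping H4K5ac region was named.

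At the other end of the H4K5ac list, clec-72 on chromosome IV (3944816 to 3947362) had the lowest lectin fold. It had 95.6, 105.6 and 110.7 CPM in the H4K5ac IPs, against 135.9, 128.4 and 140.4 CPM in the inputs, a log2 fold of -0.37 ± 0.07 (SE; edgeR adjusted p = 0.00145). Next came clec-57, which averaged 82.9 ± 11.62 CPM in the IPs, against 106.3 ± 2.35 CPM in the inputs (SD, n = 3 each; log2 fold -0.36 ± 0.09; edgeR adjusted p = 0.0057). The genes clec-149 and clec-119 followed, both at -0.35 ± 0.07 (edgeR adjusted p = 0.00161 and 0.00143 in that order). All IPs of these 4 genes lay below all of their inputs, and clec-72 stood at line 6421 of the 6431 regions listed. The inputs of the other 3 genes differed in level, with means of 134.9 ± 6.04 CPM for clec-72, 218.0 ± 9.66 CPM for clec-149 and 98.1 ± 4.55 CPM for clec-119 (SD, n = 3 each).

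In H4K8ac the lowest lectin gene was clec-54 on chromosome V (14476903 to 14479003). It had 102.0, 114.6 and 103.1 CPM in the H4K8ac IPs, against 135.0, 135.6 and 131.2 CPM in the inputs, a log2 fold of -0.33 ± 0.06 (SE; edgeR adjusted p = 0.000359). The gene clec-61 had 142.4, 164.3 and 145.3 CPM in the IPs, against 193.6, 189.2 and 181.1 CPM in the inputs (-0.32 ± 0.06; edgeR adjusted p = 0.000591). The genes clec-205 and clec-110 were both at -0.27 ± 0.06 (edgeR adjusted p = 0.000925 and 0.0022 in that order). The IPs and inputs did not overlap for any of these 4 genes. None of them was listed for H4K5ac.

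**Figure D2:**
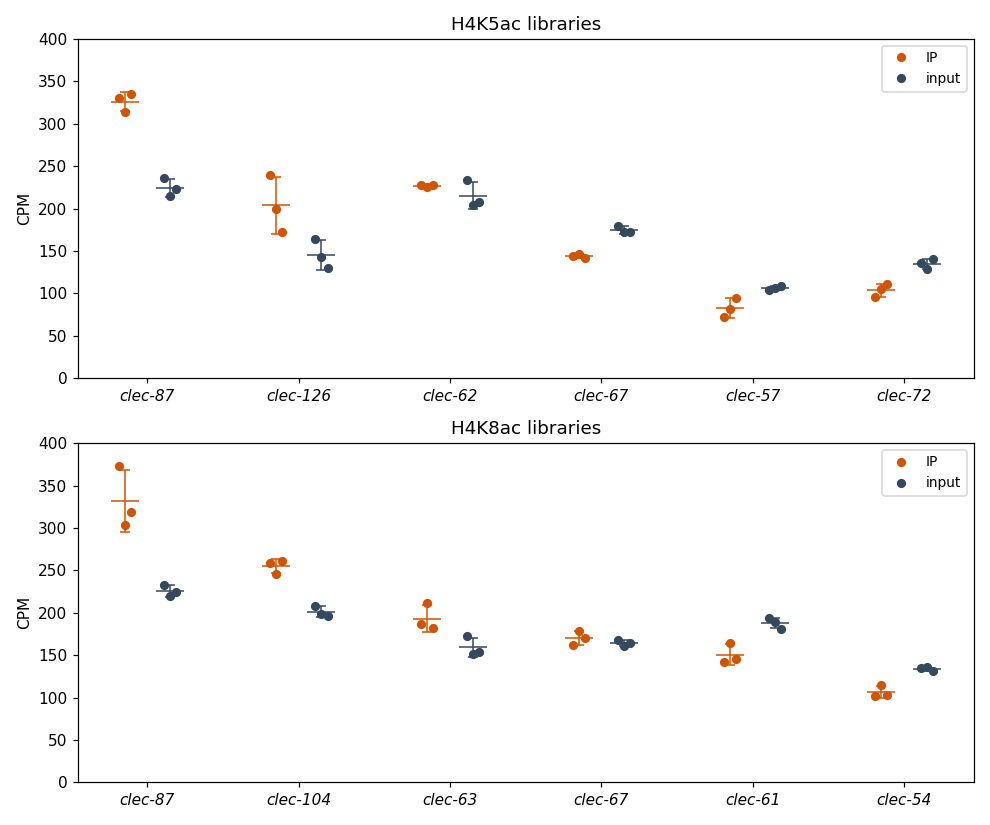
CPM in each library for 6 lectin genes of each mark, H4K5ac above and H4K8ac below; points are the 3 IP and 3 input libraries, IP on the left of each gene, and bars are the mean ± SD. The clec-87 IPs lie between 303.1 and 372.5 CPM, above every clec-87 input, while the clec-67 IPs lie below their inputs in H4K5ac and overlap them in H4K8ac.

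Among lectin genes known as markers of infection, clec-60, which Staphylococcus aureus and other bacteria induce in the gut, was listed for H4K8ac only. It had 111.7, 129.4 and 114.2 CPM in the H4K8ac IPs, against 137.6, 145.5 and 144.8 CPM in the inputs, with no overlap, and a log2 fold of -0.27 ± 0.06 (SE; edgeR adjusted p = 0.00226). A PMK-1 target, clec-67, was lower in H4K5ac, with 143.8, 146.6 and 141.5 CPM in the IPs, against 179.7, 172.4 and 171.9 CPM in the inputs (log2 fold -0.28 ± 0.07; edgeR adjusted p = 0.00355). In H4K8ac the same gene had 161.9, 178.3 and 170.5 CPM in the IPs, against 167.8, 161.1 and 163.8 CPM in the inputs. Those groups overlapped, and the log2 fold of 0.05 ± 0.05 did not pass (edgeR adjusted p = 0.421). Another PMK-1 target, clec-85, was listed for H4K5ac only, with 189.0, 196.0 and 196.6 CPM in the IPs, against 222.7, 207.8 and 208.0 CPM in the inputs. Its IPs lay below its inputs, but the log2 fold of -0.13 ± 0.06 did not pass (edgeR adjusted p = 0.0864). Neither clec-41 nor clec-70 was listed for a mark, and no region of either list overlapped them.

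Folds differed between the marks in 1 direction for the 22 lectin genes listed for both, although none passed the test. The difference, H4K5ac fold minus H4K8ac fold, was below 0 for all 22, from -0.35 for clec-67 to -0.01 for clec-92, with a median of -0.20. Of the 3750 genes listed for both marks, 51.6% were below 0, and the median was -0.01. At an adjusted p of 0.05, 0 of the 22 and 0 of the 3750 passed edgeR's quasi-likelihood test over all 12 samples (0%). At an unadjusted p under 0.05, 7 lectin genes passed, all below 0, beside 14.6% of all genes in either direction and 5.73% below 0. The comparison depends on the level of the fold, since genes with low folds in both marks tended to lie lower in H4K5ac. Of 1940 genes whose mean fold was below 0, 69.4% had a difference below 0, with a median of -0.06. The 21 lectin genes among them had a median of -0.20. Genes were split at a mean fold of 0 only, so the 1940 genes were not matched to the lectin genes in fold.

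The largest of these differences was that of clec-67, at -0.35 (95% interval -0.52 to -0.17; edgeR adjusted p = 0.158). It was followed by clec-72, at -0.32 (-0.53 to -0.11), and clec-119, at -0.27 (-0.48 to -0.05). The interval of clec-87, by contrast, ran from -0.27 to 0.21 around -0.03, and that of clec-92 from -0.20 to 0.18 around -0.01. DESeq2 called 1 lectin gene, clec-67, lower in H4K5ac than in H4K8ac, and 27 genes higher and 14 lower over all 3750. One library moved this result: without H4K5ac IP replicate 3, edgeR called 4 lectin genes lower (clec-51, clec-67, clec-72 and clec-171), and 149 genes higher and 44 lower over all. The sign was not the same in every setting either, since clec-92 reached 0.06 without H4K8ac IP replicate 2 and clec-87 reached 0.06 without H4K8ac IP replicate 1, and 2 of the 22 lay above 0 with scaling to the least enriched genes.

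The inputs carry no precipitated mark and show how far the experiments differed before precipitation. A difference between the precipitations would not appear in the inputs and cannot be told apart from one between the marks. H4K5ac input over H4K8ac input ranged from -0.07 to 0.11 (log2) over the 22 lectin genes. None passed edgeR's test at an adjusted p of 0.05 (0% of all genes did), 0 passed at an unadjusted p under 0.05 (4.8% of all genes did) and DESeq2 called 0. The highest of these input differences included those of clec-67, at 0.11 (95% interval -0.01 to 0.23), and clec-119 and clec-79, also at 0.11, which are among the genes with the most negative differences between marks. By its definition, the difference between marks subtracts the input difference of each gene, so a higher H4K5ac input lowers it. The difference between the IPs alone was not tested.

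**Figure D3:**
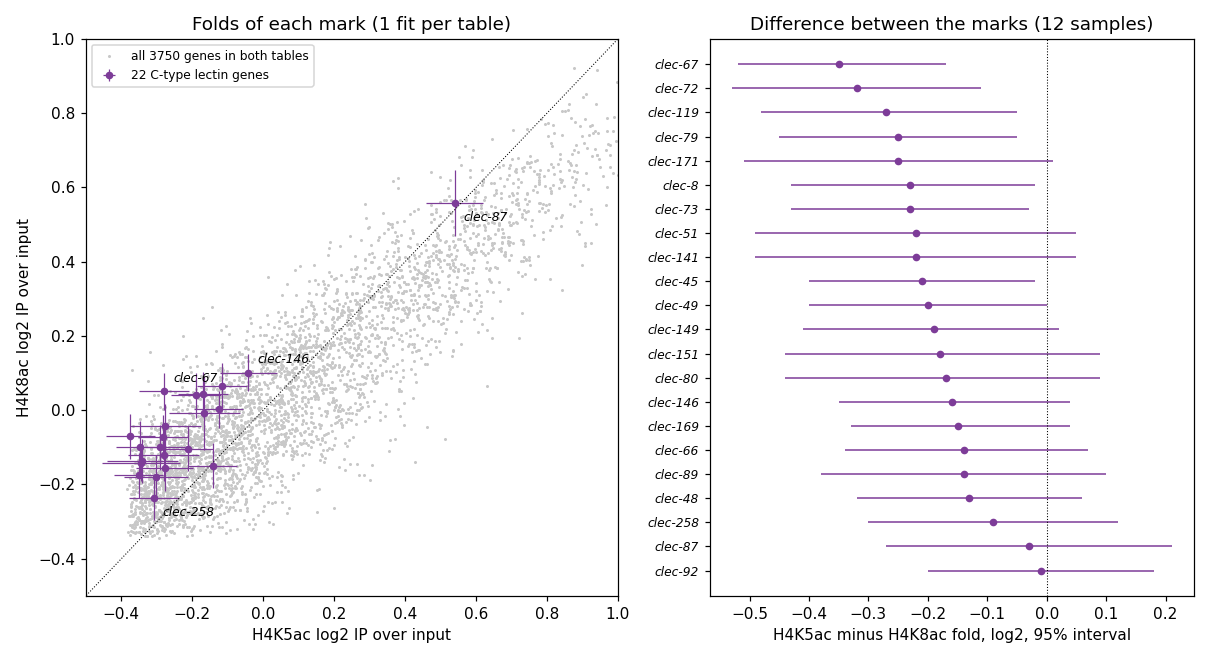
Left, H4K5ac against H4K8ac log2 fold of IP over input for the 22 lectin genes in both tables (± 1 standard error) over all 3750 common genes in grey, with the line of equal folds dotted; right, the difference H4K5ac minus H4K8ac per lectin gene with its 95% interval from the 12-sample fit. All 22 differences lie below 0, from -0.35 to -0.01, but 2 of them lie above 0 with scaling to the least enriched genes.

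Being listed for 1 mark was more frequent among lectin genes for H4K8ac. Of the H4K8ac lectin genes 57.7% were in that table only, beside 33.9% of all its genes, and 9 of the 31 H4K5ac lectin genes were in that table only, beside 33.4% of all its genes. Regions of the other mark under another name were also counted. For 5 of the 9 genes listed for H4K5ac only, a H4K8ac region covered at least 1 bp of the gene but was named for another gene. They were clec-57 (named F08H9.15), clec-62 (clec-63), clec-85 (Y54G2A.49), clec-97 (clec-98) and clec-126 (W09G10.t3). Among all 1797 genes with a span that were listed for H4K5ac only, 72.5% lay under a H4K8ac region. In the pair clec-62 and clec-63, the genes lie 509 bp apart and point away from each other, the H4K5ac region from 12891601 to 12898599 was named for clec-62, and the nearly identical H4K8ac region from 12892201 to 12898599 for clec-63. The H4K5ac fold of clec-62 was 0.08 ± 0.07 (SE; edgeR adjusted p = 0.352), which with scaling by total counts became -0.06.

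A smaller share of the H4K8ac-only lectin genes lay under a region of the other mark. Of these 30 genes, 5 were overlapped by a H4K5ac region named for another gene (clec-63, clec-98, clec-104, clec-124 and clec-142), beside 54.1% of all 1827 genes with a span listed for H4K8ac only. The regions of clec-116 and clec-115, each listed for 1 mark, overlapped each other. The other 24, clec-54, clec-60, clec-61, clec-110 and clec-205 among them, were under no H4K5ac region in the gene or in the region named for them. In the reverse direction 3 genes were under no H4K8ac region: clec-42, the pseudogene clec-44 and clec-207. The lists end at different ratios and region numbers are missing from both, so a gene outside them is not shown to lack the mark.

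Where the regions sat also set the lectin genes apart from the rest of the lists, as a description with no test. The H4K5ac table held 33 regions named for lectin genes, of which the authors annotated 36.4% at a transcription termination site and 18.2% at a promoter, beside 14.9% and 36.6% of all 6431 regions. For the 55 H4K8ac regions these shares were 21.8% and 29.1%, beside 14.8% and 36.0%. Their median length was 2.4 kb for H4K5ac and 2.8 kb for H4K8ac, beside 3.8 and 4.2 kb over all regions. For H4K5ac 13 of these regions, and for H4K8ac 17, were annotated by a gene other than the lectin gene they were named for, such as mog-5 at clec-141, faah-1 at clec-51 and unc-89 at clec-89. Regions whose annotation could not be tied to a gene were not among them. The same count over all regions was not made, so it is not shown to be particular to lectin genes.

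Longer regions went with higher folds among the lectin genes as among all genes. The Spearman correlation of the longest region of a gene with its fold was 0.61 over 31 lectin genes in H4K5ac and 0.44 over 52 in H4K8ac, and 0.59 and 0.55 over all genes. In H4K8ac, 15 lectin genes had a region of at least 5 kb. Of these, 4 were called higher and 4 lower, beside 52.4% and 15% of all genes with regions that long. Of the 37 lectin genes with shorter regions, 0 were higher and 18 lower, beside 12.1% and 50.5% of all such genes. In H4K5ac, 1 of the 7 lectin genes with regions of at least 5 kb was higher and 2 were lower, beside 55.8% and 9.29% of all genes with regions that long. Of the 24 with shorter regions, 1 (clec-126, at 4.8 kb) was higher and 19 were lower, beside 13.3% and 45.5% of all such genes. By annotation, the 6 H4K5ac genes whose longest region was at a promoter had a median fold of -0.08 and the 11 at a termination site a median of -0.29. For H4K8ac the medians of these classes were -0.12 (15 genes) and -0.13 (12 genes).

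**Figure D4:**
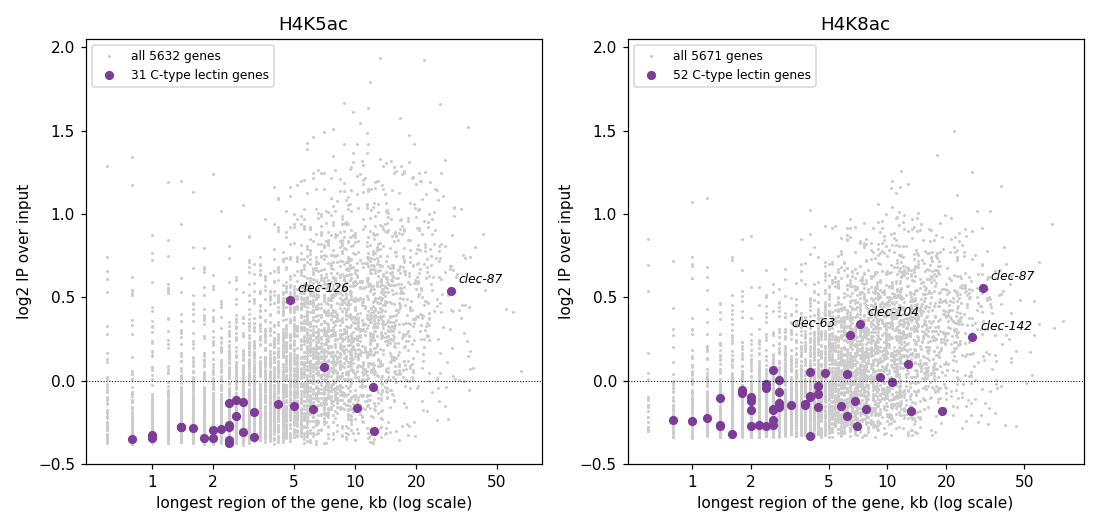
Log2 fold of IP over input, relative to the typical listed gene, against the length of the longest region named for the gene (kb, log scale), H4K5ac on the left and H4K8ac on the right, lectin genes in purple over all genes in grey. The genes called higher are named, and the 30.8 kb region of clec-87 in H4K8ac is the longest of any lectin gene; scaled to the least enriched genes, all points move up by about 0.30 and 0.26.

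Other genes close to a lectin gene may bear on its count, because how reads were assigned to genes is not given. A coding gene other than the member itself reached the 2 kb window of 56 of the 61 members, and for 18 it was another lectin gene. The same share over all genes was not counted, so this is not shown to be particular to lectin genes. The sources used here do not say that the counts come from such a window. Across lectin genes, more annotated genes in the window went with a lower input level (Spearman -0.45, n = 31, in H4K5ac and -0.23, n = 52, in H4K8ac). This relation was not taken over all genes, and its cause was not tested. Since the assignment of reads is not given, counts of genes with close neighbours are uncertain. The 3 H4K5ac members with no other coding gene in the window had folds of -0.35 to -0.19, and the 5 such H4K8ac members folds of -0.27 to 0.04. Each of them still had an annotated gene that is not protein-coding in the window, such as clec-77 at clec-79.

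Where a gene in the window has its own value in the same table, both folds can be compared, although counts of genes this close are uncertain. The gene mog-5, a DEAH-box RNA helicase gene of the germline sex switch, reaches the window of clec-141, and the annotated spans of both genes overlap. The mog-5 log2 fold was above that of the typical gene for both marks. It was 0.36 ± 0.08 in H4K5ac (SE, edgeR adjusted p = 0.00269) and 0.28 ± 0.07 in H4K8ac (0.00411). In contrast clec-141 was lower for both, at -0.34 ± 0.10 (SE; edgeR adjusted p = 0.0122) and -0.14 ± 0.06 (0.0486). The H4K5ac call of clec-141 was lost without input replicate 2, at -0.29 (edgeR adjusted p = 0.0549), and its H4K8ac call without any 1 library other than IP replicate 2 (edgeR adjusted p = 0.0882 to 0.224). The other neighbours with a value varied. In H4K5ac, F08H9.15 had -0.34 beside clec-57 at -0.36, and Y54G2A.49 had -0.21 beside clec-85 at -0.13. In H4K8ac, clec-66 at -0.16 lay beside clec-65 at -0.24, clec-166 at -0.17 beside clec-167 at -0.27, and clec-89 at -0.18 within the span of unc-89, a muscle gene, at -0.30. By contrast clec-68 at -0.21 was lower, whereas its neighbour clec-67, at 0.05, did not pass. The gene clec-186 was lower at -0.16 ± 0.06 (SE), though its IPs and inputs overlapped. That call was lost without any 1 library other than IP replicate 2 (edgeR adjusted p = 0.0546 to 0.2). Its neighbour gcy-18, a guanylyl cyclase gene, did not pass at -0.09 ± 0.05 (SE). Both clec-8 at -0.07 and clec-4 at -0.03 were short of the threshold. Neighbours were not tested against each other.

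Listed regions of each mark overlapped a smaller share of the annotated lectin genes than of all coding genes. WBcel235 annotates 239 protein-coding lectin genes by this name. H4K5ac regions overlapped 77 of them by at least 1 bp (32.2%), beside 53.3% of all 19971 coding genes. H4K8ac regions overlapped 111 (46.4%), beside 58.1% of all. Regions of both marks overlapped 70, H4K5ac alone 7, H4K8ac alone 41 and neither 121. This split was not made over all coding genes. With regions ranked above the midpoint of each list, the counts were 37 for H4K5ac (15.5%) and 56 for H4K8ac (23.4%), beside 37.7% and 40.8% of all coding genes. Many of the overlapped genes were not the gene a region was named for: 48 for H4K5ac and 62 for H4K8ac. The same count over all coding genes was not made. Chromosome V, which carries 85 of the 239 genes, had the lowest shares of the autosomes, with 17.6% overlapped by H4K5ac and 24.7% by H4K8ac, beside 33.5% and 39.3% of all its coding genes. On chromosome I the shares were 44.4% and 69.4% of 36 lectin genes, beside 75.7% and 80.2% of all coding genes. Members of the tables came from every autosome, 14 from I, 17 from II, 4 from III, 15 from IV and 11 from V, and none from X, which carries 3 lectin genes.

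Lectin genes occur in runs of neighbouring copies, and the share of genes under a region differed from run to run. With gaps of at most 5 kb, 89 of the 239 genes fell into 18 runs of 3 or more. In 4 runs, with 24 genes, no listed region of either mark overlapped any gene. The longest of these held 13 genes on chromosome V from 16839121 to 16869840, from clec-40 to clec-33. In contrast, regions of both marks overlapped all 3 genes of the run clec-82, clec-83 and clec-84 on chromosome IV, without being named for any of them. In the run of clec-62 to clec-66 on chromosome II, H4K5ac regions overlapped 4 genes and H4K8ac regions all 5.

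The stretch from clec-67 to clec-79 on chromosome IV holds 2 neighbouring runs, with 11 lectin genes among 13 coding genes over 53.6 kb. The 4 H4K5ac regions there overlapped 5 lectin genes and the 7 H4K8ac regions overlapped 7. Every region there was named for a lectin gene, and the genes clec-70, clec-71, clec-174 and clec-75 were under none. H4K8ac regions named for clec-68 and clec-76 had no H4K5ac counterpart. The listed H4K8ac folds in this stretch were -0.27 for clec-76, -0.21 for clec-68, -0.07 for clec-72, 0.04 for clec-73, 0.04 for clec-79 and 0.05 for clec-67. The H4K5ac folds were -0.37 for clec-72, -0.28 for clec-67, -0.19 for clec-79 and -0.17 for clec-73, and all 4 passed edgeR's test. The clec-73 call was lost without IP replicate 2 or any 1 of the inputs (edgeR adjusted p up to 0.151), and the clec-79 call without IP replicate 2, input replicate 1 or input replicate 2 (up to 0.108).

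**Figure D5:**
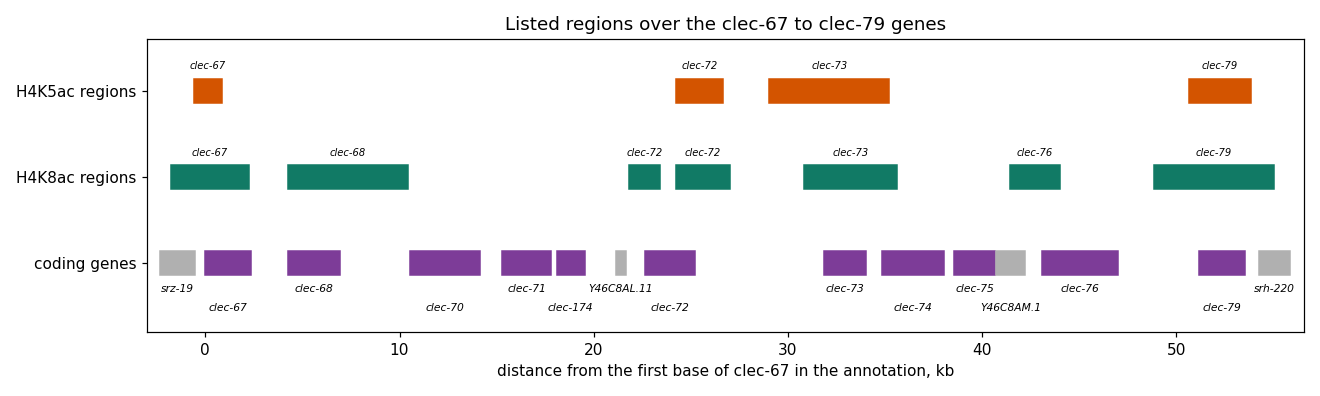
Map of the clec-67 to clec-79 stretch of chromosome IV, by distance in kb from the first annotated base of clec-67: H4K5ac regions, H4K8ac regions and coding genes, lectin genes in purple and others in grey, each region labelled with the gene it was named for. H4K5ac regions touch 5 of the 11 lectin genes and H4K8ac regions 7.

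Other genes of immunity were counted in the same way, beside 32.2% higher and 29.5% lower among all genes in H4K5ac, and 31.2% and 33.6% in H4K8ac. Of 23 listed H4K8ac genes of lysozymes, saposin-like proteins, thaumatins, antimicrobial peptides, galectins and infection response genes, 2 were higher, 14 lower and the median fold was -0.19. In H4K5ac, 4 of 17 were higher and 6 lower, with a median of -0.13. The saposin-like gene spp-17 was higher for both marks (0.48 ± 0.08 in H4K5ac and 0.29 ± 0.05 in H4K8ac; edgeR adjusted p = 0.00059 and 0.000354). In the same family spp-3 (-0.32 in H4K5ac and -0.24 in H4K8ac) and spp-4 (-0.36 and -0.31) were lower for both marks. Among signalling and transcription genes of immunity, 7 of 17 were higher and 5 lower in H4K5ac, and 7 of 13 were higher and 4 lower in H4K8ac. The pseudokinase gene nipi-3 had the highest folds there, 0.98 ± 0.11 in H4K5ac and 0.69 ± 0.09 in H4K8ac (SE; edgeR adjusted p = 3.15e-05 and 4.15e-05). In the PMK-1 pathway itself, the adaptor gene tir-1 and the kinase gene sek-1 were lower for both marks (tir-1 at -0.24 in each; sek-1 at -0.22 in H4K5ac and -0.26 in H4K8ac). The differences between these lists and the lectin genes were not tested.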

How the data were processed

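The labels describe ChIP-seq of 2 marks in 12 libraries. Per the submitters' processing notes, the software included MACS2 2.1.0, Bowtie 1.1.2, Trimmomatic 0.33 and bcl2fastq 2.17; hg38 is given as a build beside WBcel235, with no role for either. Each mark has 1 region list, deposited by the authors identically for its 6 libraries, with 1 estimated count per gene and library, repeated on each region of the gene; 71.0 to 82.8% of the values were not whole. Whether regions were called per sample or pooled, and the counter, are not given in the sources used here. Region numbers were missing (2869 for H4K5ac, 2882 for H4K8ac), list order followed IP over input (Spearman -1.0), and counts did not follow region length (0.045 and 0.029). The authors' distances to the start site were used to place regions. Gene names turned into dates by a spreadsheet were read from their transcripts, and 1 line that could not be was left out.

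Estimated counts were rounded and tested with edgeR 4.0.16 (R 4.3.3; quasi-likelihood, TMM, two-sided, Benjamini-Hochberg over all genes, threshold 0.05), per mark with 3 IPs and 3 inputs; differences between marks used the 3750 genes in both tables and 12 samples. The low-count filter removed 0 genes. CPM use TMM library sizes. The fitting steps were run on simulated counts in which few genes changed, up or down at random. That does not test the choice of scaling for these lists. Replicate pairs differed beyond counting noise (1.28 to 22.9 chi-square units for each degree of freedom); none was treated as a duplicate. The labels do not say that replicates were separate cultures, so p-values cover only how these libraries vary, possibly technical variation. Same-numbered H4K5ac IPs and inputs deviated together (r = 0.277, 0.11 and 0.226 across genes). IP 2 with input 3 (0.145) and IP 3 with input 2 (0.151) did so more than IP 2 with input 2. Pairing by number, taken from the labels, is therefore not settled, and the main fits did not use it. Alternatives were DESeq2 1.42.0, other scalings, no filter, unrounded counts, a replicate block and leaving out libraries; the scaling to the least enriched genes was chosen after seeing the data. Values per library are given for members called higher, for clec-60, clec-67 and clec-85, and for clec-54, clec-61 and clec-72. The rest of the 4 lowest members per mark are given by fold or mean. Of the 4 highest in H4K5ac, clec-62 is given by fold, and clec-146 was at -0.04 ± 0.08 (SE, edgeR adjusted p = 0.648). Values of clec-41 and clec-70 were sought, but neither gene was listed. Members and lists were chosen with earlier results of these data known. No genome sequence was used here.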

Additional observations from a re-analysis of the deposited data

How the results depend on the processing

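Of the 105 member folds and differences, 14 changed sign under at least 1 of the other settings (the scaling to the least enriched genes is given apart), and none of these had passed its test. With scaling by total counts the H4K5ac fold of clec-62 became -0.06, and H4K8ac folds became -0.0 for clec-49, -0.02 for clec-67, -0.03 for clec-73 and clec-79, -0.05 for clec-124 and -0.07 for clec-169; H4K5ac lower calls over all genes were 2627. DESeq2 and RLE scaling gave 0.02 for clec-80 and 0.0 for clec-98 in H4K8ac. Scaled to the least enriched genes, all genes gave 3272 higher and 0 lower in H4K5ac and 3550 and 0 in H4K8ac, lectin genes 4 and 0, and 23 and 0; their medians were 0.02 and 0.12, and 10 of 21 and 13 of 22 lower members lay above 0. Over the genes in both tables with 12 samples, which drops members, 1 lectin gene was higher in H4K5ac, and 1 higher and 5 lower in H4K8ac (all genes 1152 and 899; clec-169 -0.02). DESeq2 called 1 lectin gene in the difference between marks, and 27 and 14 of all genes.

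Leaving out 1 library, lower lectin genes numbered 15 (without H4K5ac input replicate 1) to 22 in H4K5ac and 14 to 31 in H4K8ac. Lower genes over all numbered 1079 (without H4K5ac input replicate 2) to 1747 in H4K5ac. Lectin genes called in the difference numbered 0 to 4, and all genes 0 to 149 higher and 0 to 44 lower. H4K8ac folds ranged from -0.03 to 0.0 for clec-4, -0.15 to 0.02 for clec-18, -0.01 to 0.08 for clec-79, -0.04 to 0.05 for clec-80, -0.08 to 0.07 for clec-98, -0.0 to 0.06 for clec-124, -0.09 to 0.03 for clec-164 and -0.01 to 0.04 for clec-169, and differences from -0.08 to 0.06 for clec-87 and -0.04 to 0.06 for clec-92. Of the called members, 8 of 23 in H4K5ac and 9 of 26 in H4K8ac lost their call without some library: clec-44, clec-48, clec-51, clec-73, clec-79, clec-141, clec-151 and clec-171 in H4K5ac, and clec-17, clec-51, clec-66, clec-68, clec-89, clec-92, clec-141, clec-149 and clec-186 in H4K8ac. The cause of these changes was not tested.

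With the replicate block, 21 lectin genes were lower in H4K5ac and 23 in H4K8ac, and 0 differed between marks. It added clec-15, clec-111, clec-153 and clec-166 to the H4K8ac calls and removed clec-51, clec-92 and clec-141. Same-numbered H4K8ac libraries did not deviate together (r = -0.239, -0.101 and 0.066), so pairing by number was not shown for that mark either. Overlapped lectin genes fell to 37 (H4K5ac, 15.5%) and 56 (H4K8ac, 23.4%) of 239 with regions above the list midpoint, beside 37.7% and 40.8% of all coding genes.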
